A study of Mus musculus with 8 samples.

Results

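When 2 compounds are given together, the change in each gene can be set against the sum of the changes that the compounds give one at a time. RNA-seq of mouse embryonic stem cells (ESCs) under PFI-3, BI-9564 or both (P+B) was read here for the departure from that sum, which is (P+B minus PFI-3) minus (BI-9564 minus DMSO) on the scale of log2(TPM + 1), where TPM is the relative abundance of a transcript scaled to 1 total for all libraries. The departure was taken for every gene with a mean TPM of at least 10 over the libraries, which were 8632 of the 50600 gene names in the deposited table (17.1%). A departure below 0 means that the gene stood lower in P+B than the sum gives, and a departure above 0 that it stood higher.

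All cells were OG2 ESCs, which carry an Oct4-GFP reporter, of mixed 129SVJ (1/2), C57B6 (3/8) and CBA (1/8) strain, with the genotype c-Jun_TetOn_mESC and at passage P12. They were grown without feeder cells in 2i medium with serum (PD0325901, Chir99021 and LIF), and every group, the controls included, received 2 µg/ml doxycycline, which switches on JUN. The 4 groups were DMSO, PFI-3 (labelled PFI), BI-9564 (labelled BI) and both compounds (labelled PB), each with 2 libraries, and the labels give 6 h of treatment for all of them, while a legend elsewhere has 8 h of JUN induction with 6 h of compound. Nothing says that the 2 libraries of a group came from separate cultures, and all groups are 1 engineered line, so p-values measure only the spread between these libraries. Same-numbered libraries were also read as set 1 (replicate 1 of each group) and set 2 (replicate 2), which share no library.

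The dose of each compound within P+B is not settled for these libraries. In the morphology and colony experiments PFI-3 and BI-9564 were used at 30 µM alone and at 15 µM each in P+B, while names of the RNA-seq libraries carry a 30 for every compound group. There are therefore 2 references, namely the full sum, for the case that P+B held each compound at its single dose, and the midpoint of the levels under PFI-3 and BI-9564, for the case that each was at a dose ratio of 0.5 and log2 changes were linear in dose. An effect of the dose in P+B and one of giving the compounds together cannot be told apart here.

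BAF complexes are ATP-dependent chromatin remodelers that open chromatin at enhancers and promoters, and several of their subunits carry bromodomains, folds that bind acetylated lysine on histones. PFI-3 binds the bromodomains of the BAF ATPases and PBRM1, and BI-9564 those of BRD9 and BRD7, which belong to different forms of the complex. JUN pairs with FOS and ATF family proteins as AP-1, which binds its motif in regulatory DNA and, in ESCs, is known to oppose pluripotency and to raise somatic genes.

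The libraries were alike in the general measures taken. TPM summed to between 991574 and 991897 per library, 10285 to 10451 genes had a TPM of at least 5, mitochondrial transcripts took 7.43% to 9.41% of the total, and replicate libraries correlated across genes with Pearson's r from 0.968 to 0.974. Read numbers cannot be recovered from TPM, so that depth is unknown and no counting error is given. In bulk samples, fewer cells of a type and less RNA per cell cannot be told apart. The ESC markers looked for were all present, with Pou5f1 at 1104 to 1333 TPM, Sox2 at 66 to 111 and Sall4 at 60 to 96. Nanog, at 29 to 106, Esrrb, at 54 to 141, and Zfp42, at 100 to 257, varied more between libraries. The 10 fibroblast markers looked for summed to 0 to 5 TPM per library. The 30 lineage factors looked for, which lie outside the naive state, summed to 106 to 111 TPM under BI-9564 and P+B. In DMSO and PFI-3 they summed to 80 to 89.

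Across the transcriptome the median change under P+B lay nearer to the full sum than to the midpoint in most choices of genes. To keep the choice of genes apart from their measurement, genes were grouped by the sum in one set and measured in the other. The 913 genes whose sum in set 1 was a fall of at least 1.5-fold had in set 2 a median sum of -0.34 and a median change under P+B of -0.32, a ratio of 0.941. The 860 genes chosen the same way in set 2 had in set 1 a median sum of -0.42 and a median P+B change of -0.34, a ratio of 0.804. For genes whose sum was a rise of at least 1.5-fold, the ratios were 0.991 for 1154 genes and 0.948 for 1087 genes. A ratio of 1 is the full sum and 0.5 the midpoint, and these 4 ratios lay nearer to 1. Among genes that each compound alone shifted by at least 1.2-fold in the same direction, a choice added after the data were seen, the ratios were 0.881 and 0.695 for falls and 0.891 and 1.08 for rises, so that 1 of them lay nearer to the midpoint. Genes whose sum lay between these limits had a median P+B change of 0.04 and 0.03.

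**Figure D1:**
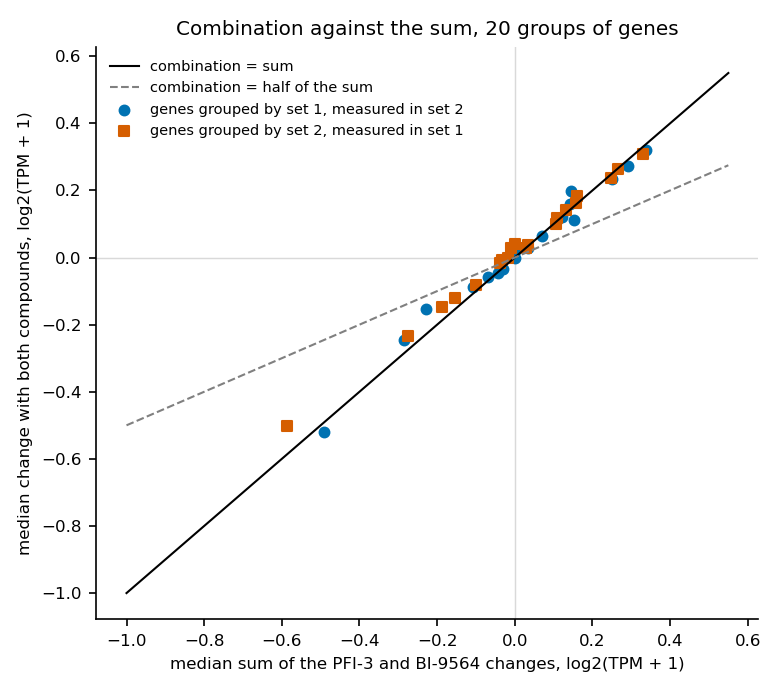
Median change under P+B (y axis) against the median sum of the PFI-3 and BI-9564 changes (x axis), both as log2(TPM + 1), for 20 groups of genes ranked by the sum in one set and measured in the other (circles, grouped by set 1; squares, grouped by set 2). The solid line marks the full sum and the dashed line the midpoint of the single compounds, and the groups of genes with the largest sums lie nearer to the solid line.

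No gene departed from the sum past the threshold. In limma's test of the interaction over all 8632 genes, 0 genes had a Benjamini-Hochberg adjusted p under 0.05 with a departure of at least 1.5-fold, a background of 0%, and the smallest adjusted p was 1. At an unadjusted p under 0.05 there were 267 genes (3.09%), of which 150 lay below the sum and 117 above it. With the replicate number as a block, 0 genes were called as well, with 507 at an unadjusted p under 0.05 and a smallest adjusted p of 0.653.

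The precision of these data sets how this can be read. The median standard error of a departure was 0.23 and the median 95% interval reached 0.53 to either side on the log2 scale. For 3109 genes (36.0%) the whole interval lay within 1.5-fold of the sum, and for 6735 genes (78.0%) within 2-fold. For the remaining genes the interval reached past 2-fold. The share with an interval within 1.5-fold was higher for genes of higher level, from 25 of 2111 genes with a mean TPM of 10 to 20 to 1327 of 1627 genes with a mean of at least 100.

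Single departures were also poorly repeated between the sets. The standard deviation of the departure over genes was 0.41 in set 1 and 0.45 in set 2, and over the 8632 genes the departures of the sets had a Pearson's r of -0.01 and a Spearman's rho of 0.06, a description across genes of libraries that share only the replicate numbering. The sign was the same in both sets for 4400 genes (51.0%). Of 917 genes with a departure of at least 1.5-fold in set 1, 494 (53.9%) had the same sign in set 2, and of 905 such genes in set 2, 492 (54.4%) had the same sign in set 1.

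For description, genes with a departure of at least 1.5-fold in the group means and the same sign in both sets are called departing genes below. They numbered 360, with 196 below the sum (2.27% of the genes tested) and 164 above it (1.9%). They were split by the sum of the single compounds. In 34 genes both the sum and the departure were falls, so P+B went beyond a fall, and in 5 genes P+B went beyond a rise. In 129 genes the sum was a fall and P+B stood above it, which is called stopping short of a fall. In 144 the sum was a rise and P+B stood below it, called stopping short of a rise. In 78 of the 129 and 49 of the 144 the P+B change itself had the opposite direction to the sum. In 48 the sum was under 1.2-fold, with P+B lower than it in 18 and higher in 30. So small a sum can also come from single changes of opposite direction, as in Pfkfb3 (-0.32 with PFI-3, 0.26 with BI-9564). The sum and the departure share the DMSO, PFI-3 and BI-9564 libraries with opposite sign, so that a chance value in any of them adds to the classes that stop short. The sizes of the classes are therefore no finding.

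**Figure D2:**
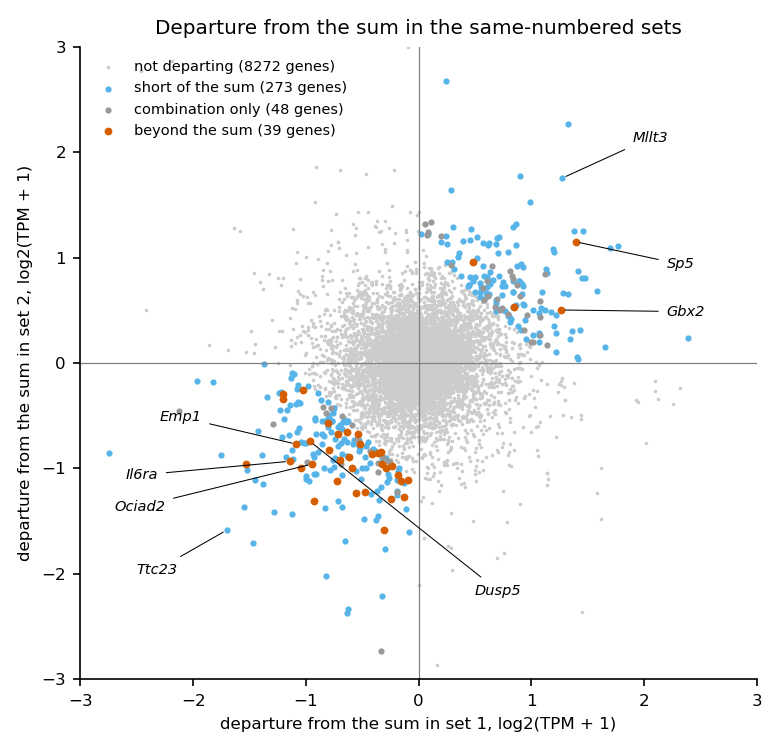
Departure from the sum in set 1 (x axis) and set 2 (y axis), as log2(TPM + 1), for each gene tested, with departing genes coloured by class and 21 genes beyond the axes not drawn. The departures form a round cloud, with 4400 of 8632 genes at the same sign in both sets.

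Departing genes were mostly low. Their median of the mean TPM was 16.7, against 37.5 for all genes tested, and 63.9% of them had a mean under 20 TPM, against 24.5% of all genes. Departing genes made up 10.9% of the genes with a mean of 10 to 20 TPM, 3.43% of those at 20 to 50, 0.958% at 50 to 100 and 0.369% from 100 upwards. The deposited TPM are whole numbers, and when every value was moved by 0.5 towards no departure, 167 genes still met the definition.

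When genes were put in these classes by 1 set alone, the other set gave a measurement that the choice did not use. Of 39 genes beyond a fall by set 1 alone, 27 (69.2%) also lay below the sum in set 2, with a median departure there of -0.25, a median sum of -0.98 and a median P+B change of -1.13. Of 51 genes beyond a fall by set 2 alone, 35 (68.6%) lay below the sum in set 1, with a median departure of -0.25. By the same choice, 193 of 362 genes (53.3%) and 186 of 354 genes (52.5%) that stopped short of a fall repeated their sign, and 206 of 403 genes (51.1%) and 182 of 344 genes (52.9%) that stopped short of a rise did so. Genes beyond a rise did so in 4 of 7 and 8 of 17. Genes with a sum under 1.2-fold that lay below it repeated their sign in 45.5% by set 1 and 70.6% by set 2. For those above it these were 71.0% and 46.5%, so that shares of this size were not particular to genes beyond a fall. The difference between the classes was not tested. This choice by 1 set was added after the data were seen.

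Of the genes that went beyond a fall, Emp1 had the smallest unadjusted p, while Gm3851, Ackr3, Il6ra, Accsl, Ociad2 and Ly6a had lower departures. Emp1 encodes epithelial membrane protein 1, a small membrane protein of epithelial cells, and lies at chr6:135362545-135383173 on the plus strand (mm10). Emp1 stood at 136 and 141 TPM in DMSO, 80 and 75 in PFI-3, 78 and 85 in BI-9564 and 21 and 26 in P+B. Both P+B libraries were below all the others, as they were in 6.17% of the genes tested (they were above all others in 7.39%), and both single-compound groups were below DMSO. Emp1 departed from the sum by -0.93 ± 0.18 (SE, 95% interval -1.33 to -0.53), with -1.09 in set 1 and -0.77 in set 2. Its unadjusted p of 0.000652 (limma) was the smallest of all genes tested, with an adjusted p of 1. The scale of the sum decides this reading for Emp1: the sum on the log2 scale gives 45.4 TPM, the sum on the TPM scale 20.5, the midpoint 79.4, and P+B stood at 23.5.

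Genes for partners of JUN were among those beyond a fall. Fosl1 and Fosl2, which encode the FOS-like partners of JUN, and Anxa1, which encodes the phospholipid-binding annexin A1, are the JUN targets named by the study that passed the filter. Fosl1 stood at 47 and 67 TPM in DMSO, 29 and 35 in PFI-3, 28 and 43 in BI-9564 and 12 and 9 in P+B, and Fosl2 at 35 and 34, 24 and 29, 35 and 33, and 19 and 14. For both genes the P+B libraries lay below all others, and for Fosl2 the BI-9564 libraries overlapped the DMSO libraries. The departure was -0.85 ± 0.36 for Fosl1, -0.64 ± 0.25 for Fosl2 and -0.54 ± 0.38 for Anxa1, whose P+B libraries, at 21 and 12 TPM, also lay below all others. On the TPM scale the sum gives 10.5 TPM for Fosl1, which is where P+B stood. For Anxa1 it gives 17.5, close to P+B at 16.5, and for Fosl2 it gives 26.0, where P+B stood at 16.5. All 3 lay below the sum on the log2 scale in both sets, with a median of -0.64, while Fosl1 and Anxa1 lay at or near the sum on the TPM scale. The study picked these genes as JUN targets, so that they are no independent evidence of a direction. Runx1, Pxdc1 and Tgfbi, from the same list, had means of 4, 4.38 and 2.25 TPM and stayed under the filter.

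Of 11 measured AP-1 and ATF/MAF factors, 7 lay below the sum in both sets, where 25.5% of all genes did, and 2 lay above it in both sets, where 25.5% of all genes did too. The list had a median departure of -0.09, beside -0.00 over all genes, and 3 departing genes, all below the sum: Fosl1, Fosl2 and Atf3. Of all genes tested 2.27% were departing below the sum. At a mean of 20 to 50 TPM, where these 3 lie, 3.43% were departing in either direction. Fosl1 and Fosl2 are also among the JUN targets given above. Atf3, a stress-induced partner of JUN, stood at 29 and 32 TPM in DMSO, 17 and 20 in PFI-3, 29 and 34 in BI-9564 and 10 and 13 in P+B. BI-9564 alone overlapped DMSO, and both P+B libraries lay below both PFI-3 libraries. The departure of Atf3 was -0.69 ± 0.26, and it was -0.71 against the sum on the TPM scale. Junb, another JUN family member, went the other way (0.35 ± 0.22), with 26 and 29 TPM under P+B against 31 and 25 under BI-9564. Jun itself, which doxycycline drives from the transgene in all libraries, stood at 1569 to 3011 TPM. Its departure was -0.09, with an interval from -0.92 to 0.74. In each group replicate 2 of Jun was above replicate 1, and the departure was -0.07 in set 1 and -0.11 in set 2.

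Immediate early genes outside AP-1, which respond to mitogens and stress within minutes to hours, leaned below the sum. Of 21 measured, 17 had a departure below 0, where 50.3% of all genes did. In both sets 9 were below 0 and 1 above 0, where 25.5% of all genes were below and 25.5% above. Their median was -0.16 (-0.29 in set 1, -0.06 in set 2), and without the first BI-9564 library it was 0.03, so that its direction rests on that library. Dusp5 and Dusp1 encode phosphatases that switch off MAP kinases. Dusp5 stood at 77 and 86 TPM in DMSO, 70 and 63 in PFI-3, 74 and 65 in BI-9564 and 34 and 28 in P+B, and Dusp1 at 331 and 350, 252 and 263, 293 and 263, and 156 and 139. In both genes the P+B libraries lay well below the single compounds, which themselves lay below DMSO. The departure was -0.85 ± 0.19 for Dusp5 and -0.51 ± 0.13 for Dusp1, at similar sizes against the sum on the TPM scale (-0.79 and -0.40). Ier5 (-0.38) and Klf10 (-0.34) had departures with intervals that included 0. Myc, a growth-promoting transcription factor, stood at 40 and 32 TPM in DMSO and at 16 and 15 in P+B, and departed by -0.55 ± 0.21.

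**Figure D3:**
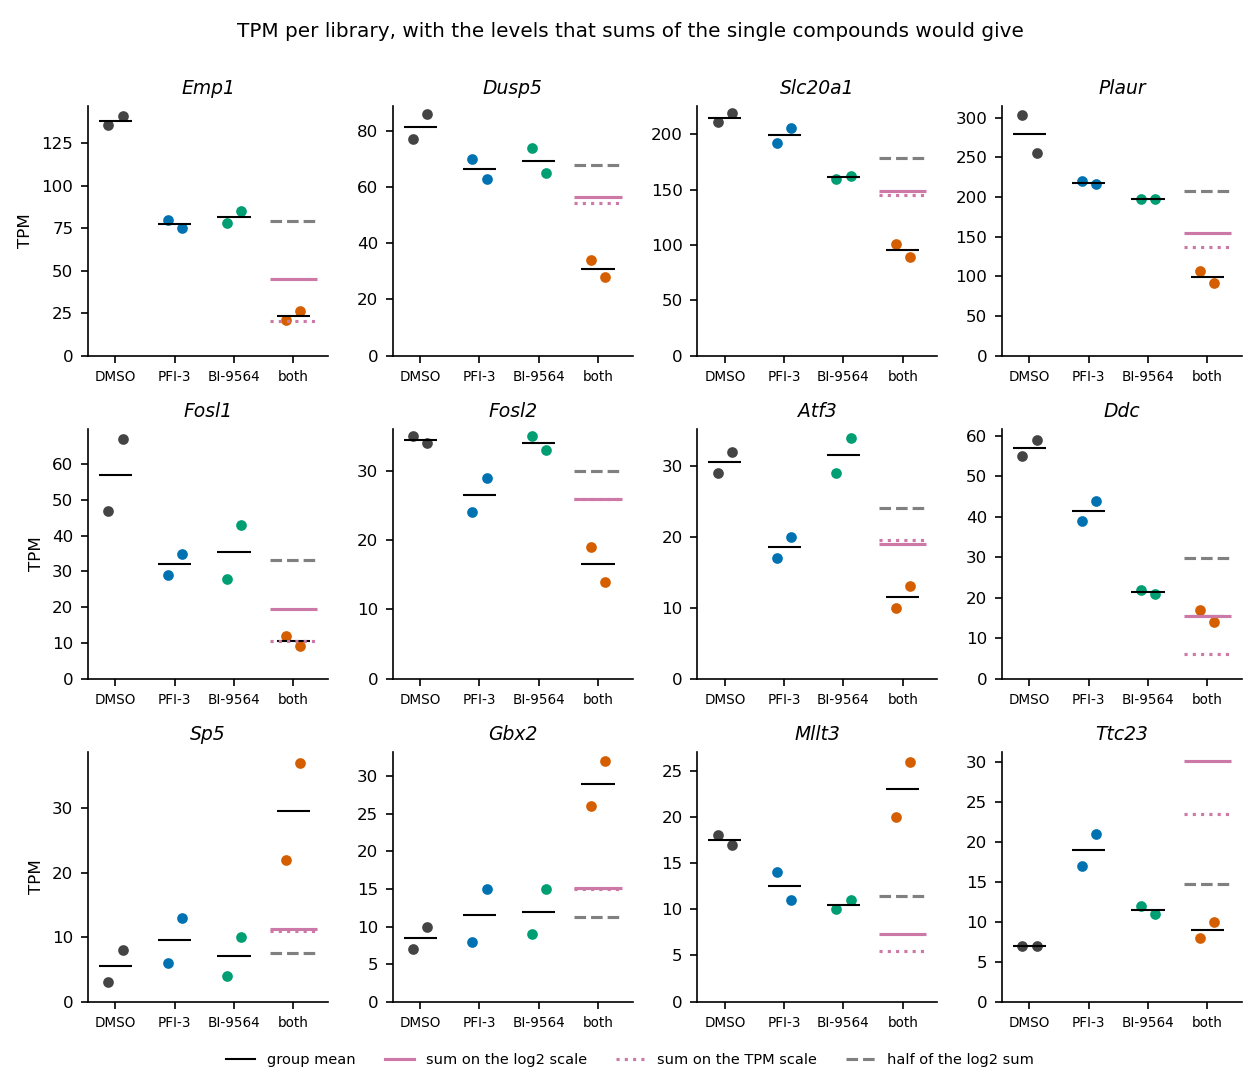
TPM (y axis, from 0) in each of the 8 libraries for 12 genes, as points by group with the group mean as a black line. Over the P+B libraries lie the levels that the sum on the log2 scale (solid), the sum on the TPM scale (dotted) and the midpoint of the single compounds (dashed) would give. Dusp5, Slc20a1 and Plaur lie below both sums, Emp1 and Fosl1 at the sum on the TPM scale, Ddc at the sum on the log2 scale, Sp5 and Gbx2 above all of these levels, Mllt3 above and Ttc23 below each of them.

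Single genes for membrane, adhesion and matrix proteins lay on either side of the sum. Slc20a1, a sodium-phosphate cotransporter, stood at 211 and 219 TPM in DMSO, 192 and 206 in PFI-3, 160 and 162 in BI-9564 and 101 and 89 in P+B. Plaur, the receptor of the urokinase plasminogen activator, stood at 304 and 255, 220 and 216, 198 and 198, and 107 and 92 TPM. In both genes all P+B libraries lay below all others, and the departures were -0.65 ± 0.13 for Slc20a1 and -0.64 ± 0.16 for Plaur. Tns1, which encodes the focal adhesion protein tensin 1, stood at 31 and 39 TPM in DMSO and at 9 and 10 in P+B, while PFI-3 had 31 and 30 and BI-9564 had 22 and 17, a departure of -0.77 ± 0.26. Flnc, which encodes the actin crosslinker filamin C, departed by -0.81 ± 0.40, but the sum on the TPM scale for Flnc is 0 and P+B stood at 7.5 TPM, so that its departure was 3.09 on that scale. Lama3, a chain of the laminin of epithelial basement membranes, departed by -0.60 ± 0.32, while Lamb2, a chain of other laminins, stood above the sum by 0.68 ± 0.30. The departure of Lamb2 was 1.07 in set 1 and 0.29 in set 2. The intervals of Flnc, Lama3 and Lamb2 all included 0.

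The lists of adhesion, matrix and actin genes had medians close to the sum. The 29 measured integrin and focal adhesion genes had a median departure of -0.09 with 10 genes below the sum in both sets and 7 above it, 25 matrix genes a median of 0.00 with 8 and 8, and 30 actin and actomyosin genes a median of -0.01 with 10 and 4. Over all genes tested, 25.5% lay below the sum in both sets and 25.5% above it. The 20 keratin, cadherin and tight junction genes had a median of -0.14 and 10 below the sum in both sets, but a median of 0.12 against the sum on the TPM scale. For 15 of the 29 adhesion genes and 19 of the 30 actin genes the interval lay within 1.5-fold of the sum, as it did for 36.0% of all genes.

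Other genes beyond a fall had roles outside adhesion. Il6ra, the receptor chain for interleukin 6, stood at 25 and 23 TPM in DMSO, 22 and 27 in PFI-3, 19 and 17 in BI-9564 and 7 and 10 in P+B. PFI-3 alone overlapped DMSO, and the departure was -1.04 ± 0.29, the same size against the sum on the TPM scale (-1.04). Ociad2 stood at 29 and 23, 26 and 19, 14 and 13, and 6 and 5 TPM, a departure of -0.95 ± 0.32. It was -0.95 in set 1 and -0.96 in set 2, but Ociad2 was named for large departures in both sets. Ackr3, a scavenging chemokine receptor, departed by -1.12 with an interval from -2.99 to 0.76. Of 22 measured genes of the amino acid stress (ATF4) response, 13 lay below the sum in both sets and 2 above it, with a median of -0.11. Over all genes tested, 25.5% lay below the sum in both sets and 25.5% above it. Trib3, a pseudokinase induced by ATF4, stood at 44 and 39 TPM in DMSO, 50 and 65 in PFI-3, 21 and 23 in BI-9564 and 21 and 18 in P+B. PFI-3 alone was above DMSO, so that the sum was -0.43 and the departure -0.62 ± 0.23, while P+B overlapped BI-9564 alone. Slc7a3, an arginine transporter of the same list, departed by -0.30 with an interval that included 0.

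Among the 34 genes beyond a fall, 7 had a mean of at least 50 TPM: Emp1, Dusp5, Slc20a1, Plaur, Sfn, Lgals3 and Mks1. Sfn, Lgals3, Mks1, Gsn, Rin1 and Serpinb9b are named here after their values were seen. Sfn, the epithelial 14-3-3 protein sigma, stood at 832 and 733 TPM in DMSO, 727 and 596 in PFI-3, 597 and 457 in BI-9564 and 336 and 235 in P+B, and departed by -0.65 ± 0.27 with similar values in both sets (-0.63 and -0.66). Mks1, a protein of the ciliary transition zone, stood at 97 and 82, 80 and 68, 77 and 74, and 36 and 41 TPM (-0.69 ± 0.19). In both genes the P+B libraries lay below all others. Lgals3, which encodes galectin 3, went from 325 and 217 TPM in DMSO to 121 and 68 in P+B, but replicate 1 was above replicate 2 in every group and the interval of its departure of -0.81 included 0, while with the block its unadjusted p was 0.00033 (limma, adjusted p of 0.653). Gsn, the actin-severing protein gelsolin, departed by -0.79 ± 0.40 (0.52 against the sum on the TPM scale), Rin1, an effector of RAS, by -0.75 ± 0.29 and Serpinb9b, a protease inhibitor, by -0.92 ± 0.33. The genes of the class with no values given are Gm3851, Accsl, Ly6a, Spsb2, Gstp-ps, Pcolce2, Cmklr1, Car13, Ptges, Lefty2, Ndrg1, Prss35, Mras and Pla2g7, with departures from -1.24 to -0.59.

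Against the midpoint of the single compounds, genes did pass the test. With limma, 63 genes stood below the midpoint (0.73% of the genes tested) and 1 above it (0.0116%), at an adjusted p under 0.05 and 1.5-fold. With the replicate block there were 153 calls, 136 below and 17 above, which held all 64. A gene whose P+B change equals the sum differs from the midpoint by its sum times 0.5, so this test finds genes with a large sum as well as genes beyond it. Its calls use the same P+B, PFI-3 and BI-9564 libraries as the departure, so that a low value in P+B lowers both, and the departures of the 63 genes, all below 0 with a median of -0.43, are no separate support. Of the 34 genes beyond a fall, 18 were among them. Those with the smallest p were Emp1 (-1.72 ± 0.11, adjusted p = 0.0013 by limma with Benjamini-Hochberg), Dusp14, a MAP kinase phosphatase (-0.92 ± 0.08), Myadm, a membrane protein of myeloid cells (-0.76 ± 0.07), Plaur (-1.06 ± 0.10), Plet1, a surface protein of placenta and epithelia (-1.35 ± 0.12), and Slc20a1 (-0.91 ± 0.08). Emp1 was called below the midpoint in 8 of 8 fits that left out 1 library, and Dusp14, Myadm, Plaur, Plet1 and Slc20a1 in 7 of 8. Of the 64 calls, 31 were made in 0 of these 8 fits and 10 in at least 6. The number of calls was 1 without the second P+B library and 30 without the first, the lowest and highest of these fits. Of the genes described here, the block added calls below the midpoint for Fosl2, Anxa1, Ier5, Slc7a3, Ackr3, Pfkfb3 and Lgals3 and above it for Sp5, Gbx2, Cdx1, Id3, Mllt3 and Ccdc9.

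Ddc, which encodes DOPA decarboxylase and was chosen after its values were seen, was called below the midpoint, though in 0 of 8 fits that left out 1 library, and met the sum closely. It stood at 55 and 59 TPM in DMSO, 39 and 44 in PFI-3, 22 and 21 in BI-9564 and 17 and 14 in P+B. Both single compounds lay below DMSO, and both P+B libraries lay below all others. The departure of Ddc was -0.00 ± 0.20, and the log2 sum gives 15.5 TPM, where P+B stood at 15.5, while the sum on the TPM scale gives 6 TPM. Myadm (-0.24 ± 0.11) and Plet1 (-0.44 ± 0.20) also had intervals that reached 0.

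A loose form of the AP-1 motif, with any base in the middle, was looked for in the promoters of these genes, because all cells carried induced JUN. In RefSeq promoter windows (GRCm38.p6), the 250 bases before each gene's start were searched for TGANTCA, which reads the same on both strands. Of 63 genes below the midpoint, 50 matched a window by symbol and 9 of these held the motif (18.0%), against 323 of 6653 genes tested with a window (4.85%) and 7.82% of all 27025 genes in the table. Among genes beyond a fall it was 2 of 26 (7.69%), and among genes short of a fall or of a rise 6 of 90 (6.67%) and 10 of 104 (9.62%). A match describes these letters only. The usual AP-1 form has C or G in the middle, while Plet1 matched as TGATTCA and Ddc as TGAATCA. The shares are therefore counts of the loose form and not of AP-1 sites. Stretches around the motif (in capitals) follow for 3 genes below the midpoint, of which Emp1 and Plaur also went beyond a fall, at chr6:135362759-135362819, chr7:24462387-24462447 and chr9:50494354-50494414, all on the plus strand, with the first base of the motif at -145, -69 and -144 from the start. The RefSeq start used for Emp1 lies inside the longer gene span given above.
Emp1: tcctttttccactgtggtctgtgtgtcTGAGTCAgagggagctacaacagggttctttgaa
Plaur: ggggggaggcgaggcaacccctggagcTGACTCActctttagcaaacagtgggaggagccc
Plet1: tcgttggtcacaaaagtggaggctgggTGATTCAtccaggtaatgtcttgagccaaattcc

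Genes beyond a rise were few, and 3 of the 5 were developmental transcription factors. The others were Dnajc1, at 15 and 20 TPM in P+B (0.72 ± 0.43), and Gm37167, which was listed at 0 in 3 libraries and rests on single libraries. Sp5, a target of Wnt signalling, stood at 3 and 8 TPM in DMSO, 6 and 13 in PFI-3, 4 and 10 in BI-9564 and 22 and 37 in P+B. Gbx2, a homeobox factor that LIF signalling maintains in ESCs, stood at 7 and 10, 8 and 15, 9 and 15, and 26 and 32 TPM. In both genes the P+B libraries lay above all others, while the other 3 groups overlapped. The departure was 1.27 ± 0.77 for Sp5 and 0.88 ± 0.49 for Gbx2, with intervals that included 0. With the replicate block the unadjusted p was 0.0046 for Sp5 and 0.0156 for Gbx2 (limma, adjusted p of 0.771 and 0.802), and the adjusted p against the midpoint went from 0.169 to 0.0048 for Sp5 and from 0.123 to 0.0116 for Gbx2. Cdx1, a caudal homeobox factor, stood at 24 and 46 TPM in P+B, against 14 and 19 in DMSO and 18 and 30 in PFI-3, and departed by 0.69 ± 0.57. In all 3 genes replicate 2 was above replicate 1 in every group. Within sets the departures were 1.39 and 1.15 for Sp5, 1.26 and 0.50 for Gbx2 and 0.84 and 0.53 for Cdx1.

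The 11 measured Wnt response genes and TCFs had a median departure of 0.03, with 6 above the sum in both sets and 4 below it. Over all genes tested these shares were 25.5% and 25.5%. Besides Sp5 and Cdx1, Notum, which encodes a secreted inhibitor of Wnt, was a departing gene (0.97 ± 0.42), but there P+B, at 14 and 25 TPM, overlapped DMSO, at 16 and 24, and stopped short of a fall. Znrf3, a ligase that removes Wnt receptors, stood at 0.42 ± 0.42. Of the ID and BMP genes, Id3 stood higher with each compound than in DMSO, and at 71 and 56 TPM in P+B against 20 and 24 in DMSO, with a departure of 0.39 ± 0.27. The medium held Chir99021, which activates Wnt signalling, in all groups.

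Among the genes that stopped short, single genes had departures near or past the size of their sum. Mllt3, a reader of acylated histones in the super elongation complex, stood at 18 and 17 TPM in DMSO, 14 and 11 in PFI-3, 10 and 11 in BI-9564 and 20 and 26 in P+B. Both single compounds lay below DMSO and both P+B libraries above it, a departure of 1.51 ± 0.29 from a sum of -1.15. Ttc23, which encodes a protein linked to cilia, departed in the other direction, with 7 and 7, 17 and 21, 12 and 11, and 8 and 10 TPM and a departure of -1.64 ± 0.32 from a sum of 1.96, so that its P+B libraries stayed slightly above DMSO. Ccdc9 stood at 43 and 31, 21 and 32, 36 and 29, and 59 and 65 TPM (1.40 ± 0.32). All 3 had intervals that left out 0 and none passed the adjustment (adjusted p of 1, limma). They were named for large departures in both sets, so that such intervals follow in part from the choice and are a description.

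Further genes that stopped short were Exo5, a DNA exonuclease (1.13 ± 0.27), Ubr1, a ubiquitin ligase of the N-degron pathway (0.92 ± 0.25), Uros, an enzyme of haem synthesis (1.34 ± 0.40), and Cox7a1, a subunit of cytochrome c oxidase (1.44 ± 0.40), all above the sum of 2 falls. The P+B mean was past the DMSO mean for Exo5 and Uros and short of it for Ubr1 and Cox7a1. Svbp, a partner of the enzymes that remove tyrosine from tubulin, stood at 35 and 34 TPM in DMSO, 28 and 28 in PFI-3, 29 and 33 in BI-9564 and 44 and 47 in P+B. It departed by 0.83 ± 0.18 and was the 1 gene called above the midpoint (0.61 ± 0.11, adjusted p = 0.0476 by limma with Benjamini-Hochberg), a call made in 0 of 8 fits that left out 1 library. Dclre1b, a nuclease that protects telomeres (-1.46 ± 0.52), Xlr5b (-1.28 ± 0.36) and Ezh1, a methyltransferase for H3K27 (-0.97 ± 0.29), stood below the sum of 2 rises. Xlr5b belongs to a family of near-identical genes on the X chromosome and overlaps Xlr5a, so that its reads may be shared.

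At higher levels, and chosen after their values were seen, Vps51, a subunit of a tethering complex of the Golgi, stood at 27 and 30 TPM in DMSO, 36 and 37 in PFI-3, 51 and 56 in BI-9564 and 37 and 40 in P+B, and Med7, a subunit of Mediator, at 39 and 40, 51 and 54, 63 and 66, and 55 and 53. In both genes P+B lay between DMSO and BI-9564, with departures of -0.81 ± 0.17 and -0.65 ± 0.15. Cdc25c, a phosphatase that starts mitosis, stood at 16 and 15 TPM in DMSO, 25 and 25 in PFI-3, 27 and 24 in BI-9564 and 26 and 27 in P+B, a departure of -0.60 ± 0.20.

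A few metabolic genes stood out under P+B. Pfkfb3, which sets the level of an activator of glycolysis, stood at 19 and 24 TPM in DMSO, 18 and 16 in PFI-3, 22 and 30 in BI-9564 and 10 and 10 in P+B, a departure of -0.96 ± 0.29. Bnip3l, a mitophagy receptor, stood at 98 and 92, 109 and 98, 103 and 116, and 82 and 66 TPM (-0.69 ± 0.18), and Hk2, a hexokinase, at 165 and 175, 164 and 171, 140 and 142, and 110 and 109 TPM (-0.34 ± 0.12). These were chosen from their list for the size of their departures, and in each both P+B libraries lay below all others. The 28 measured genes of glycolysis and the hypoxia response had a median departure of -0.01, with 8 below the sum in both sets and 3 above it. Over all genes tested these shares were 25.5% and 25.5%. Hist1h2bc, a histone H2B gene with relatives of close sequence, stood at 20 and 17, 12 and 19, 22 and 17, and 30 and 35 TPM (0.99 ± 0.34).

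Of the genes of proteins that the compounds bind, 4 had departures of at most 0.10 in the group means and 1 stood above the sum. Smarca4, the BAF ATPase BRG1, departed by 0.04 ± 0.14, Pbrm1 by 0.02 ± 0.17, Brd7 by 0.00 ± 0.25 and Brd9 by 0.10 ± 0.23, and Smarca4, Pbrm1 and Brd7 had intervals within 1.5-fold. The small means of Brd7 and Brd9 come from sets of opposite sign. Brd7 departed by 0.38 in set 1 and -0.38 in set 2, and Brd9 by -0.17 and 0.37. Pbrm1 also changed sign, at -0.03 and 0.06. Cecr2, whose bromodomain BI-9564 also binds, stood at 27 and 23 TPM in DMSO, 21 and 23 in PFI-3, 23 and 21 in BI-9564 and 31 and 30 in P+B, above all other libraries, a departure of 0.63 ± 0.21. Smarca2, the other BAF ATPase, had a mean of 4.13 TPM and was not tested. Ss18, a BAF subunit, departed by -0.08 ± 0.14.

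Of the pluripotency genes, Pou5f1 lay at the sum with a narrow interval, the intervals of Sox2, Esrrb and Nanog were wider and included 0, and that of Tdgf1 left out 0. Pou5f1 departed by -0.00 ± 0.09, with an interval from -0.21 to 0.20, and Sox2 by -0.02 ± 0.24. Esrrb stood at 86 and 58 TPM in DMSO, 128 and 110 in PFI-3, 76 and 54 in BI-9564 and 141 and 100 in P+B, a departure of 0.14 ± 0.34. For Nanog, whose replicates differed in every group, the interval ran from -1.46 to 1.24. Tdgf1, a Nodal coreceptor, departed by -0.46 ± 0.19, where PFI-3 alone had 221 and 196 TPM, above DMSO at 163 and 156, and P+B had 82 and 84, overlapping BI-9564 alone at 101 and 76. Tdgf1 has a pseudogene in the table, so that reads may be split between them. The 16 core pluripotency genes had a median of -0.01 and the 24 naive factors one of -0.12, which was 0.08 without the second DMSO library, 0.01 without the first PFI-3 library, 0.13 without the first BI-9564 library and 0.07 without the second P+B library.

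Housekeeping lists had medians at the sum. The 87 ribosomal protein genes had a median departure of -0.01 with 79 intervals within 1.5-fold, the 78 nuclear genes of oxidative phosphorylation a median of -0.00 with 55, the 36 proteasome genes 0.01 with 31, the 46 G2/M genes -0.00 with 37 and the 48 genes of DNA replication 0.02 with 32. Such intervals were found for 36.0% of all genes, and for 1327 of 1627 genes with a mean of at least 100 TPM. Single members stood apart, such as Tyms, thymidylate synthase (-0.49 ± 0.13), Pola2, a primase-polymerase subunit (0.43 ± 0.14), Ppan (0.41 ± 0.17) and Polr1e (-0.73 ± 0.25), both of ribosome production, and Rpl38 (0.29 ± 0.11). mt-Cytb, at 7097 to 8615 TPM, departed by 0.02 ± 0.11. Of 41 lists with at least 3 measured genes, 7 had a median departure at least 0.1 from 0 with the same sign in both sets, and all 7 medians were below 0. Besides the JUN targets, immediate early, ATF4, keratin and junction, and naive lists given above, these were 11 annexins and S100 proteins at -0.14, whose median was above 0, at 0.019 to 0.033, without the second DMSO, the first PFI-3 or the first BI-9564 library, and 7 ERK feedback and ETV genes at -0.11.

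**Figure D4:**
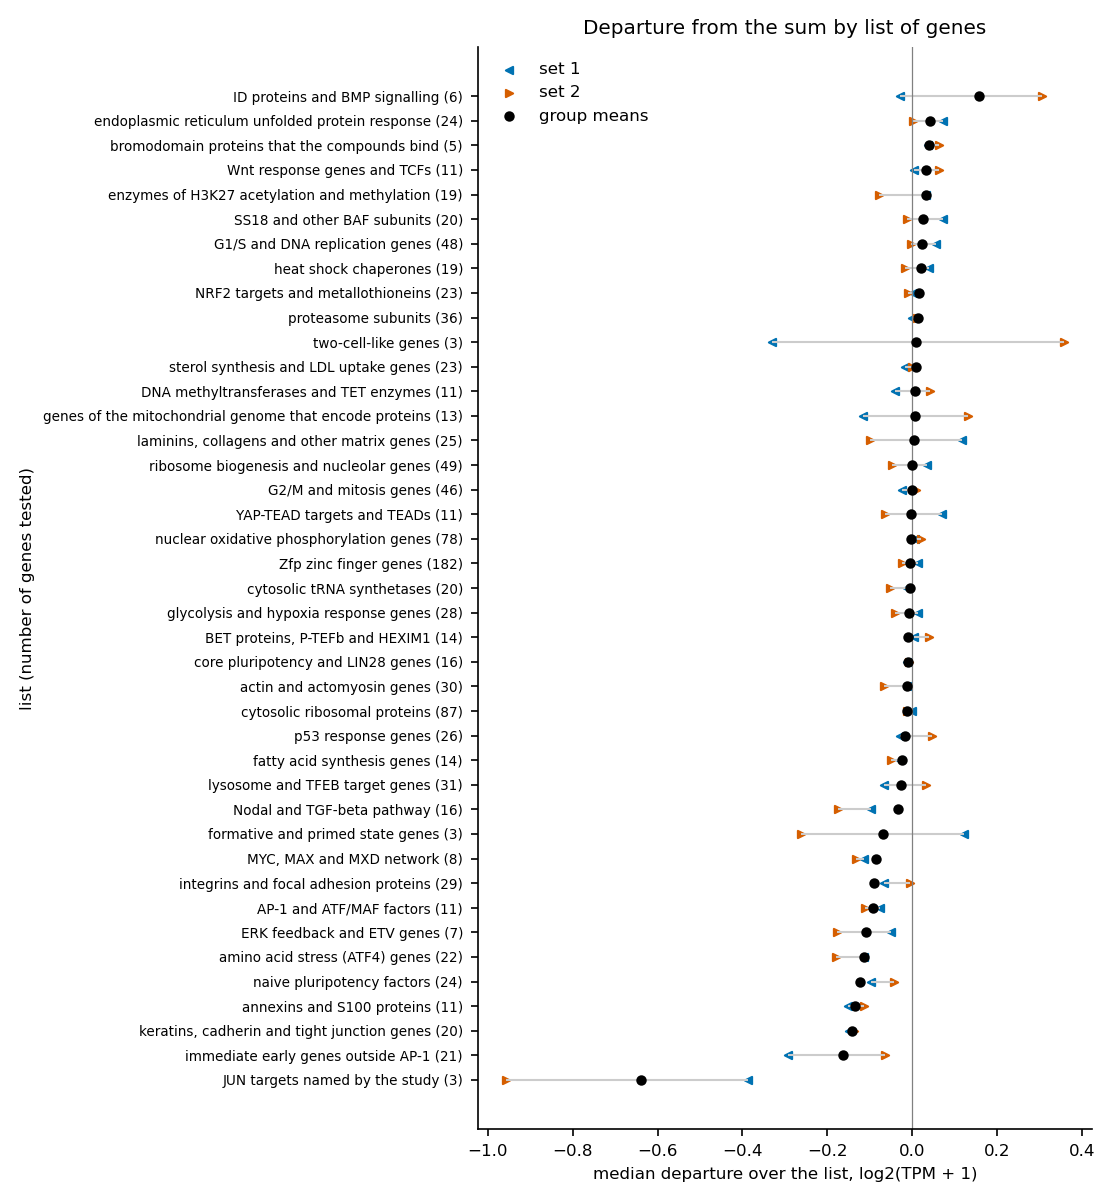
Median departure from the sum, as log2(TPM + 1), of each list of genes with at least 3 measured members (number in brackets), from the group means (black), set 1 (blue) and set 2 (orange). Most medians lie close to 0, and the JUN targets named by the study, immediate early, keratin and junction, annexin, naive, ATF4 and ERK feedback lists lie below it in both sets.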

How the data were processed

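Poly(A) RNA from 8 libraries in 4 groups of 2 was measured; the labels name a VAHTS mRNA-seq V2 kit and the methods V3. The submitters' processing notes name bcl2fastq, Bowtie2 2.2.5, RSEM 1.3.0 and mm10. The authors deposited TPM rounded to whole numbers, treated here as a score, so depth is not kept and count tools, such as the DESeq2 the study used, were not run. Of 50600 rows, 33075 were at 0 throughout, 187 shared a name with another row and 27 had date names; these stayed in.

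Values of genes passing the minimum mean of 10 were taken as log2(TPM + 1), which understates changes of low genes, with limma 3.58.1 in R 4.3.3 (trend on the mean, all groups in 1 fit, no block) and Benjamini-Hochberg over all 8632 genes. Calls need an adjusted p under 0.05 and 1.5-fold. An exact two-sided permutation test of 2 libraries against 2 cannot go below p = 0.333 and was not used. The procedure was tested on simulated data. The members and lists were chosen with earlier results of these data known.

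Replicate numbers were taken to pair the libraries. Their replicate differences correlated across genes in all 6 pairs of groups (Pearson's r from 0.176 to 0.309). The main fit had no block, so its standard errors and intervals also hold differences between replicate numbers. With the block, the unadjusted p of Ackr3 (limma) went from 0.208 to 0.0219. That of Anxa1 went from 0.197 to 0.0481 and that of Cdx1 from 0.261 to 0.0232. For Junb it was 0.149 without and 0.147 with the block, and no departure was called either way.

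Genes were named by this rule: the 12 lowest and 12 highest departures of the same sign in both sets (ranked by the set nearer to 0), the study's JUN targets and compound targets with Jun, Ss18 and 4 pluripotency factors, up to 4 genes of a list with the largest departures of 1 sign in both sets, and up to 6 calls against the midpoint in each direction; a selection of these is printed. Others are marked as chosen after their values were seen. Positions are from GENCODE M21 (GRCm38). Strand use in the quantification is not given in the sources used here, so that reads of Fosl1 and Ccdc85b, Junb and Prdx2, Dusp1 and Ergic1, Uros and Bccip, Polr1e and Fbxo10, and Pbrm1 and Gnl3, which overlap on opposite strands, cannot be told apart. Alternatives were the block, pseudocounts, filters, normalizations, no trend, no fold threshold, the sum on the TPM scale, rounding, and leaving out each library.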

Additional observations from a re-analysis of the deposited data

Results flagged for a closer look

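The flag covers 16 of the 66 genes named by the rule and described here. In each, a departing gene, the effect of 1 compound had opposite directions without and with the other compound in both same-numbered pairs. The test of that difference is the interaction in limma, in which none passed (adjusted p of 1 for each), and the rule that named the genes used these departures, so the values are a description. The departure was -1.64 for Ttc23, -1.46 for Dclre1b, -1.28 for Xlr5b, -0.97 for Ezh1, -0.96 for Pfkfb3, -0.73 for Polr1e and -0.69 for Bnip3l. It was 0.63 for Cecr2, 0.68 for Lamb2, 0.83 for Svbp, 0.92 for Ubr1, 1.13 for Exo5, 1.34 for Uros, 1.40 for Ccdc9, 1.44 for Cox7a1 and 1.51 for Mllt3. For Mllt3, BI-9564 changed the level by -0.69 alone and by 0.83 on top of PFI-3, and for Ttc23, PFI-3 changed it by 1.31 alone and by -0.33 on top of BI-9564. Over all 8632 genes tested, departing or not, the effect of BI-9564 turned in this way in 479 and that of PFI-3 in 618. These counts did not ask for a departing gene, so they are no matching background for the 16.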

How the results depend on the processing

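The interaction kept 0 calls under every alternative with all libraries, and leaving out 1 library gave 0 to 1 call, Gm42742 without the first PFI-3 library and Gm12191 without the first P+B library, each resting on a single discrepant value. With the replicate block, calls against the midpoint numbered 153 (136 lower, 17 higher), and the block changed no call of the interaction; without 1 library they ranged from 1 (without the second P+B library) to 30 (without the first), with 1 to 29 lower and 0 to 1 higher, which was never Svbp. With a pseudocount of 5, 0 genes were called above the midpoint and 201 genes departed (110 lower, 91 higher). With a minimum mean of 5 these were 0 and 651 (349, 302), with 11 lists past 0.1, and with a minimum of 20 they were 5 and 130 (73, 57). With no filter, 2 genes were called (2 lower, 0 higher) and 2117 departed (1075, 1042), and the ratio to the sum could not be computed because medians were 0. Quantile normalization gave 5 calls above the midpoint, no trend 24 calls (23 lower) and no fold threshold 2 above.

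Moving every value by 0.5 towards no departure left 167 departing genes (95, 72) and 1 list past 0.1. Without 1 library, only 1 set was complete, and the sign had to match in that set alone. By this looser rule 494 to 665 genes departed (254 to 368 lower, 240 to 300 higher), which cannot be set against the 360. The ratio of the P+B change to the sum, 0.921 as the mean of 4 choices, was 1.01 for genes chosen at 2-fold, an alternative added after the data were seen. Against the sum on the TPM scale 383 genes departed, with 140 lower and 243 higher. Of the 34 genes beyond a fall, 27 stayed below that sum, 18 of them by at least 1.5-fold, and 7 lay at or above it. Among these 7 the departure turned to 0.19 for Emp1, 3.09 for Flnc and 0.52 for Gsn. The median of the keratin and junction list turned to 0.12.

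Without 1 library, 7 to 12 lists had a median past 0.1, with the sign asked for in the 1 complete set only. The medians of 32 of 41 lists ranged across 0. Among lists with a median at least 0.1 from 0, those that changed sign ran from -0.29 to 0.034 for the immediate early genes, -0.31 to 0.033 for the annexins, -0.24 to 0.13 for the naive factors and -0.021 to 0.17 for the ID and BMP genes; the cause was not tested.

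Depth is unknown and each group has only 2 libraries, so that small departures of low genes were not detectable. The large departures of Ttc23 and Mllt3, and that of the well-expressed Emp1, did not pass the adjustment either. The absence of calls therefore does not exclude large departures or departures of well-expressed genes. Only the intervals given above limit the departure of a gene. The dose in P+B is unsettled.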
